A study of Paramacrobiotus metropolitanus with 7 samples.

Results

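The genes described here surround PmDmrt3090 and PmDmrt3093, a pair of DMRT paralogs of the tardigrade Paramacrobiotus metropolitanus. They are the transcripts whose identifiers run from PARRI_0003061 to PARRI_0003120, without those of the pair itself (PARRI_0003090 and PARRI_0003093), which serve as reference. The rule gave 64 transcripts of 58 loci, out of 26306 transcripts of 24899 loci in the deposited matrix. Locus numbers were taken as an order of loci. Distances in bases and scaffold ends were not analysed here, because no identifier of the matrix matched the RefSeq gene table used here.

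DMRT proteins are transcription factors that bind DNA through the DM domain, first known from Doublesex of the fly and MAB-3 of the nematode. In many animals they act in the development of male or female tissues, and DMRT genes are often transcribed in the gonad. The study assigned PmDmrt3090 and PmDmrt3093 to a branch related to Dmrt93B. The files and the study give the neighbouring transcripts no gene name or function, so each is called by its identifier, and no sequence of them was at hand.

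RNA was measured in whole animals of the laboratory strain TYO, reared singly from the egg until sexual organs had formed, by which they were sexed. Each library came from a tube of pooled animals of a single sex, with 4 libraries of males and 3 libraries of females, no treatment and no stated age. The deposited values are TPM, a transcript abundance corrected for coding length, scaled between libraries by TMM, with library sums of 891117 to 1127677. Depth cannot be read from them, so the authors' deposited mean normalized count of each sex was set beside them to show how many reads they rest on. In RNA of whole animals, fewer cells of a type and less RNA per cell cannot be told apart for any value given here. The labels name the libraries of a sex as replicates without saying that they came from separate cultures, so the p-values measure the spread between these libraries, which may be technical.

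Males and females were set against each other by limma, on a scale of log2(TPM + 0.1), over all 18420 transcripts with at least 1 TPM in at least 3 libraries. A call is a Benjamini-Hochberg FDR below 0.05 over all of them. Of the 64 members, 53 were tested, 9 had only low values or values in too few libraries, and 2 were listed at 0 in every library. Among the 53, 23 were called higher in males, 12 were called higher in females and 18 were not called. Over all tested transcripts, 25.3% were called higher in males and 23.9% higher in females. The number of listed transcripts does not depend on the filter, although the calls do. Counted over every listed transcript, the shares were 35.9% of members against 17.7% of the matrix for males. For females they were 18.8% of members against 16.8% of the matrix. In all 35 called members, male and female libraries had separate ranges. Including uncalled members, every male library lay above every female library in 25 members and the reverse held in 14, where 21.7% and 18.8% of all listed transcripts did so (28.1% and 25.9% of those tested). The median log2 ratio of group means (males over females, each + 0.1 TPM) was 0.74 over the 62 members with any value, against 0.48 over all transcripts with any value. Over 10-fold higher in females were 2 members, where 3.19% of tested and 2.24% of listed transcripts were. With a 5 TPM filter on the mean, the median log2 ratio was 0.13, against 0.01 over all transcripts that passed. The count of members higher in males was then 13 of 38 tested, where 22.6% of all tested transcripts were called higher in males. Without male replicate 1 it was 14 members, where 17.1% of tested transcripts were called higher in males, and without male replicate 3 it was 15, where 19.0% were. The calls were not spread evenly along the numbers.

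**Figure D1:**
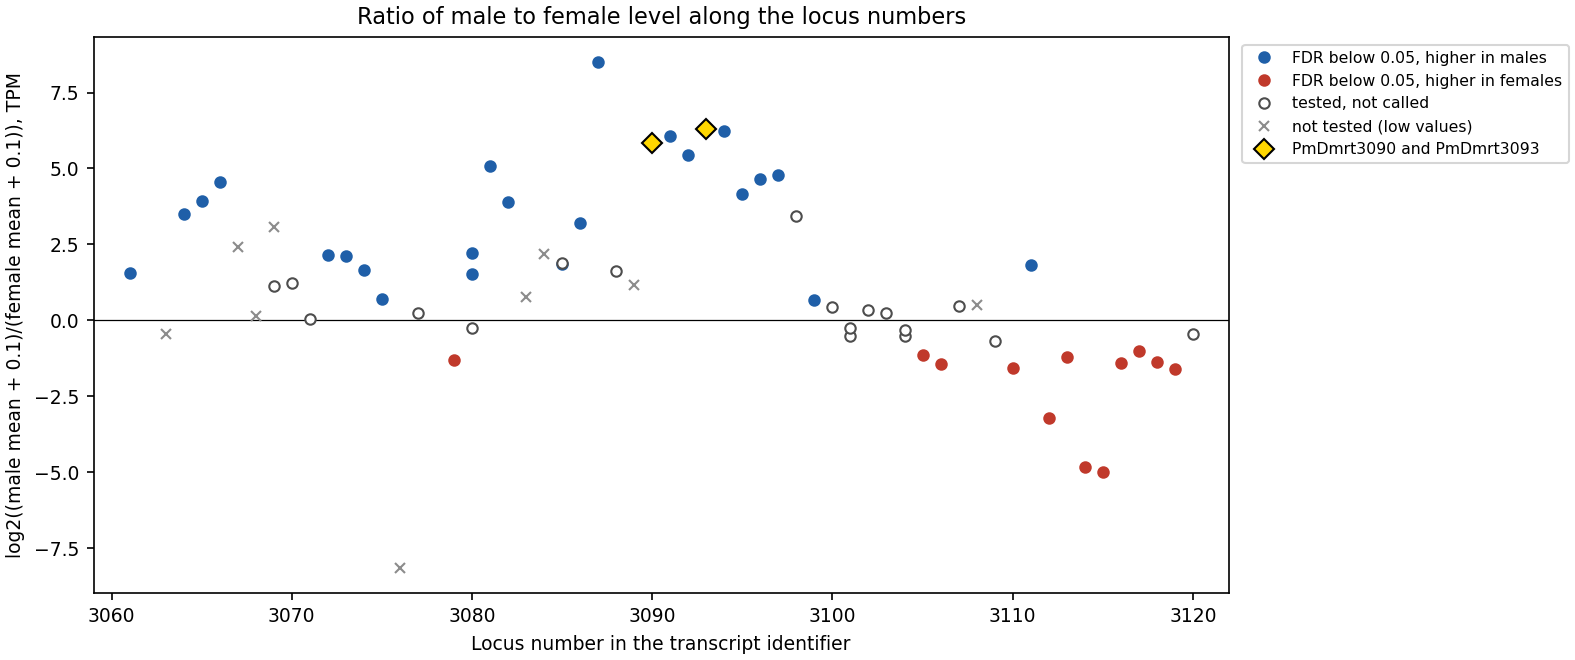
Each point is a transcript, placed by its locus number (x axis) and by the log2 ratio of the male mean to the female mean, each + 0.1 TPM (y axis), with filled circles for transcripts called higher in males or in females. Values lie above 0 at most loci up to PARRI_0003098, are highest around the DMRT pair (diamonds), and lie near or below 0 from PARRI_0003101 on except at PARRI_0003111; for transcripts listed at 0 in all females the height depends on the 0.1 TPM added.

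Calls higher in males lay mostly at the lower numbers and around the DMRT pair, and calls higher in females lay mostly at the higher numbers. Among the 29 transcripts from PARRI_0003061 to PARRI_0003085 (20 tested), 13 were called higher in males (44.8%) and 1 higher in females (3.45%). Among the 11 members from PARRI_0003086 to PARRI_0003098 (10 tested), 8 were called higher in males (72.7%) and 0 higher in females. The count higher in females there was 0 also at an unadjusted p below 0.05. Among the 24 transcripts from PARRI_0003099 to PARRI_0003120 (23 tested), 2 were called higher in males (8.33%) and 11 higher in females (45.8%). Of all listed transcripts, 17.7% were called higher in males and 16.8% higher in females. These 3 segments were drawn after the values were seen and are a description. Over their 27, 11 and 24 transcripts with any value, in that order, the median log2 ratios (males over females) were 1.65, 4.65 and -0.60. Over the same transcripts the median male level was 4.41, 6.87 and 22.4 TPM, and the median female level was 0.726, 0.151 and 49.1 TPM. The medians differed more between segments in females than in males.

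A stretch was also delimited by rule, as the loci in windows of 10 consecutive loci with at least 4 over 10-fold higher in males at an FDR below 0.05, joined where they overlap. It ran from PARRI_0003081 to PARRI_0003097, 17 loci including the DMRT pair, of which 11 were over 10-fold higher in males. The pair is among these 11 and was counted in the windows. The lowest window, from PARRI_0003081 to PARRI_0003090, reached 4 only with both PmDmrt3090 and PARRI_0003087 counted. The low end of the stretch therefore rests on the reference and on PARRI_0003087, which had a mean of 2.86 normalized counts in males. Starts at PARRI_0003087 in other settings, given below, rest on that same low count. Of all members, 12 were over 10-fold higher in males, or 18.8%, where 5.67% of all listed transcripts were (8.09% of those tested). Their number was 4 with a pseudocount of 1 TPM or a 5 TPM filter on the mean, and 5 under quantile normalization. Of the 12, those outside the stretch were PARRI_0003064, PARRI_0003065 and PARRI_0003066, a short run at the low end of the numbers. Both ends moved with the settings. With a count filter (at least 10 mean normalized counts in a sex) the stretch began at PARRI_0003090 itself and still ended at PARRI_0003097, and with a pseudocount of 1 TPM or a 5 TPM filter on the mean it ran from PARRI_0003087 to PARRI_0003094. Under quantile normalization it ran from PARRI_0003087 to PARRI_0003097, and without male replicate 2 it ended at PARRI_0003098. With over 2-fold in place of over 10-fold, and 5 of 10 loci, it began at PARRI_0003057, below the numbers studied here.

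The loci that lie between the DMRT paralogs were nearly limited to males, like the paralogs. PARRI_0003091 had 19.7, 6.28, 34.8 and 6.49 TPM in male libraries 1 to 4, against 0, 0.451 and 0 TPM in female libraries 1 to 3. Males exceeded females by 6.21 log2 units (SE 0.86, FDR 0.0011 by limma). PARRI_0003092 had 16.6, 4.87, 42.7 and 9.25 TPM in male libraries 1 to 4, against 0.976, 0 and 0 TPM in female libraries 1 to 3. Both were lowest in male library 2, highest in male library 3, and listed at 0 in all but a single female library. In PARRI_0003092 males exceeded females by 5.93 log2 units (SE 1.03, FDR 0.0026 by limma), with only 20.3 mean normalized counts in males and 0.359 in females, against 107 and 0.929 for PARRI_0003091. The difference moved with the single female library above 0, and was 7.03 log2 units for PARRI_0003091 without female replicate 2 and 7.08 for PARRI_0003092 without female replicate 1. For reference, PmDmrt3090 had 31.4, 15.4, 73.4 and 15.4 TPM in male libraries 1 to 4, against 0.173, 1.16 and 0.163 TPM in female libraries 1 to 3, and PmDmrt3093 had 8.36, 2.49, 10.8 and 9.48 TPM in male libraries 1 to 4 and was listed at 0 in all 3 female libraries.

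Of the 4 loci that follow PmDmrt3093, all were called higher in males. PARRI_0003094, the most abundant of them, had 55.9, 23.9, 111 and 12.4 TPM in male libraries 1 to 4, against 0, 0.677 and 1.04 TPM in female libraries 1 to 3. Males exceeded females by 6.37 log2 units (SE 1.00, FDR 0.0017 by limma), and its 572 mean normalized counts in males, against 7.22 in females, were the most of any member over 10-fold higher in males. It exceeded PmDmrt3090 in 3 of the 4 male libraries. Its difference was 5.29 log2 units without female replicate 1 and 7.05 without female replicate 3. PARRI_0003095 had 6.88, 3.86, 9.61 and 5.22 TPM in male libraries 1 to 4, against 0.119, 0.215 and 0.445 TPM in female libraries 1 to 3, a male minus female difference of 4.20 log2 units (SE 0.54, FDR 0.00085 by limma). PARRI_0003097 had 7.93, 5.70, 8.0 and 5.86 TPM in male libraries 1 to 4, against 0, 0.451 and 0 TPM in female libraries 1 to 3, a male minus female difference of 5.28 log2 units (SE 0.70, FDR 0.00092 by limma). Male libraries were closer together in PARRI_0003097 than in its neighbours, with 1.40-fold between the highest and the lowest, against 8.94-fold in PARRI_0003094. Without female replicate 2 the difference in PARRI_0003097 was 6.11 log2 units. PARRI_0003096 had 4.44, 1.09, 3.22 and 0.886 TPM in male libraries 1 to 4 and was listed at 0 in all 3 female libraries (limma FDR 0.0027). It had too few libraries at 1 TPM to be tested without male replicate 1, 2 or 3, and it missed the threshold under quantile normalization (limma FDR 0.12).

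The change came between the next 2 numbers. PARRI_0003098 had 3.86, 0, 1.57 and 1.5 TPM in male libraries 1 to 4, against 0, 0 and 0.206 TPM in female libraries 1 to 3, and was not called (limma FDR 0.098), although without male replicate 2, where it was listed at 0, the limma FDR was 0.0092. PARRI_0003099 had 31.7, 37.9, 30.5 and 42.5 TPM in male libraries 1 to 4, against 21.2, 24.3 and 22.3 TPM in female libraries 1 to 3, 1.58-fold higher in males (limma FDR 0.049). That call was lost when each of the 7 libraries was left out in turn, with limma FDR between 0.061 and 0.11. PARRI_0003100 had 105, 85.5, 83.3 and 84.9 TPM in male libraries 1 to 4, against 62.5, 59.1 and 75.2 TPM in female libraries 1 to 3 (limma FDR 0.11). Levels in females were therefore below 0.21 TPM in every library at PARRI_0003098, and above 21 TPM in every library at PARRI_0003099.

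**Figure D2:**
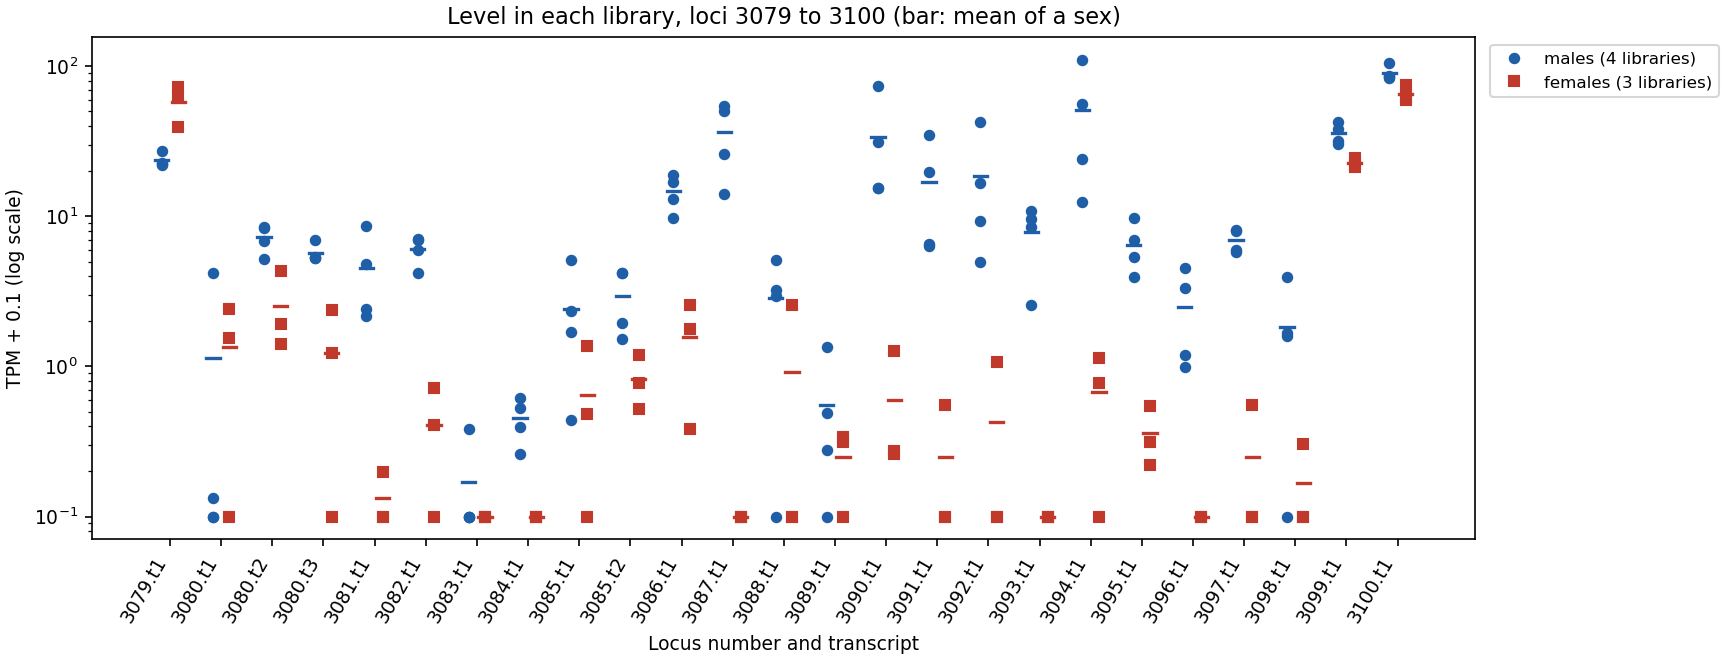
Circles show the 4 male libraries and squares the 3 female libraries of each transcript from PARRI_0003079 to PARRI_0003100, as TPM + 0.1 on a log scale, with a bar at the mean of each sex; points at 0.1 are values listed at 0. From PARRI_0003090 to PARRI_0003097 every male library lies above every female library, and at PARRI_0003099 and PARRI_0003100 females stand above 20 TPM.

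Before PmDmrt3090 the calls higher in males were interrupted. PARRI_0003086 had 9.62, 13, 18.9 and 16.7 TPM in male libraries 1 to 4, against 2.46, 1.68 and 0.282 TPM in female libraries 1 to 3, a male minus female difference of 3.56 log2 units (SE 0.66, FDR 0.0033 by limma) and a ratio of group means of 9.31. Without female replicate 3 its difference was 2.73 log2 units. PARRI_0003087 had 14.0, 50.4, 26.0 and 54.6 TPM in male libraries 1 to 4 and was listed at 0 in all 3 female libraries (limma FDR 0.00021). These TPM values rest on a mean of 2.86 normalized counts in males, or 0.0788 counts per TPM where the median over all transcripts was 9.69, a ratio that grows with the coding length. No fold is given against a listed 0. PARRI_0003088 had 2.85, 5.05, 0 and 3.15 TPM in male libraries 1 to 4, against 0, 2.46 and 0 TPM in female libraries 1 to 3, which overlapped (limma FDR 0.26). PARRI_0003089, next to PmDmrt3090, was too low to be tested, with 0, 0.178, 1.26 and 0.389 TPM in male libraries 1 to 4, against 0.237, 0.215 and 0 TPM in female libraries 1 to 3. PARRI_0003088 and PARRI_0003089 had means of only 2.38 and 2.07 normalized counts in males, too few to show where the run of male levels begins. On the low side of PmDmrt3090, PARRI_0003086 was the nearest well counted male-biased locus (49.8 mean normalized counts in males and 5.13 in females).

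**Figure D3:**
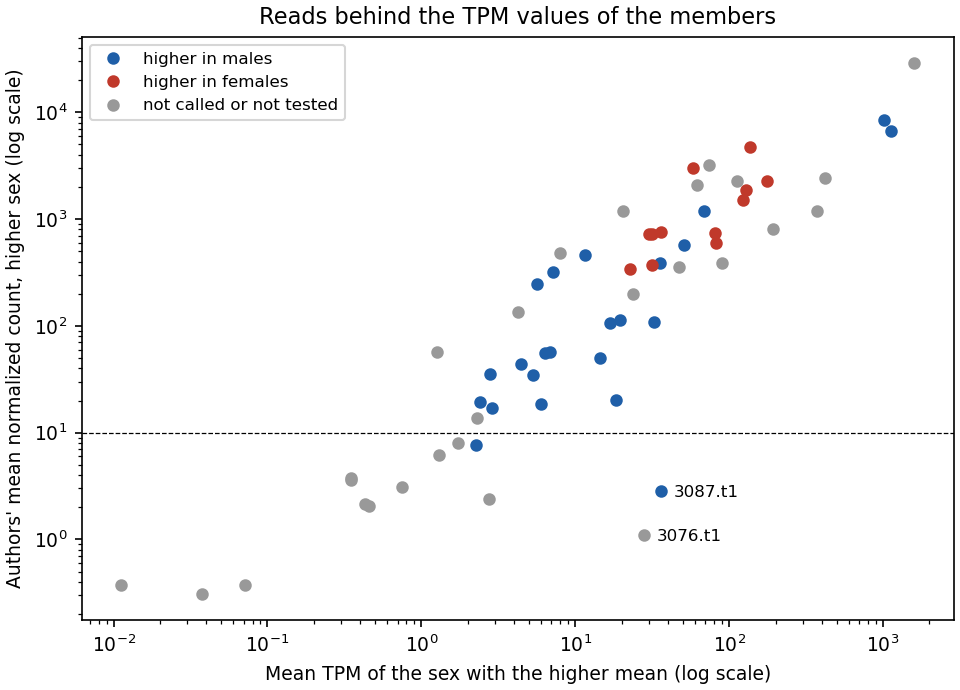
Members by the mean TPM of the sex with the higher mean (x axis, log scale) and the authors' mean normalized count of the sex with more counts (y axis, log scale), with a dashed line at 10 counts. PARRI_0003087 and PARRI_0003076 stand below the other members with the same TPM, at 2.86 and 1.10 counts.

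Further down, PARRI_0003081 and PARRI_0003082 formed the low end of the stretch. PARRI_0003081 had 4.69, 2.06, 8.57 and 2.31 TPM in male libraries 1 to 4, against 0, 0 and 0.0980 TPM in female libraries 1 to 3, a male minus female difference of 4.93 log2 units (SE 0.70, FDR 0.0011 by limma). PARRI_0003082 had 5.89, 6.88, 4.08 and 6.95 TPM in male libraries 1 to 4, against 0, 0.308 and 0.618 TPM in female libraries 1 to 3, a male minus female difference of 4.26 log2 units (SE 0.71, FDR 0.0021 by limma). PARRI_0003065, in the run of PARRI_0003064 to PARRI_0003066, had 6.51, 4.70, 6.73 and 3.20 TPM in male libraries 1 to 4, against 0.319, 0.441 and 0 TPM in female libraries 1 to 3, a male minus female difference of 4.19 log2 units (SE 0.69, FDR 0.0021 by limma). The difference was 3.45 log2 units for PARRI_0003082 without female replicate 1 and 4.87 without female replicate 3, and 3.44 for PARRI_0003065 without female replicate 3. All were weak transcripts, with means of 4.41, 5.95 and 5.28 TPM in males and 0.0327, 0.309 and 0.253 TPM in females. PARRI_0003080, just below the stretch, has 3 transcripts, among which the authors' quantification may have divided shared reads, which was not tested. PARRI_0003080.t2 had 8.22, 8.42, 5.14 and 6.79 TPM in male libraries 1 to 4, against 1.31, 4.2 and 1.81 TPM in female libraries 1 to 3 (limma FDR 0.020). PARRI_0003080.t3 had 5.21, 6.87, 5.21 and 5.23 TPM in male libraries 1 to 4, against 0, 2.28 and 1.1 TPM in female libraries 1 to 3 (limma FDR 0.031). Both were higher in every male library, and PARRI_0003080.t1 was not called, with 0, 4.13, 0.0330 and 0 TPM in male libraries 1 to 4, against 2.32, 1.45 and 0 TPM in female libraries 1 to 3 (limma FDR 0.49). Both calls failed under quantile normalization (limma FDR 0.15 for PARRI_0003080.t2 and 0.12 for PARRI_0003080.t3). Without female replicate 3, male replicate 1 or male replicate 2, the limma FDR was between 0.057 and 0.060 for PARRI_0003080.t2. For PARRI_0003080.t3 it was between 0.050 and 0.069 without female replicate 3 or any 1 of the male libraries. The male minus female difference of PARRI_0003080.t3 was 3.10 log2 units, and 1.74 without female replicate 1 and 4.02 without female replicate 2.

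PARRI_0003072 and PARRI_0003073 were the most abundant male-biased members, and they were not limited to males. PARRI_0003072 had 1277, 818, 1563 and 407 TPM in male libraries 1 to 4, against 58.3, 311 and 324 TPM in female libraries 1 to 3, a male minus female difference of 2.32 log2 units (SE 0.69, FDR 0.025 by limma). PARRI_0003073 had 1402, 949.8, 1698 and 485 TPM in male libraries 1 to 4, against 61.1, 357 and 361 TPM in female libraries 1 to 3, a male minus female difference of 2.36 log2 units (SE 0.70, FDR 0.024 by limma). The levels of the neighbours moved together, with PARRI_0003073 between 1.05 and 1.19 times PARRI_0003072 in all 7 libraries, and whether they share reads was not tested. In both, female library 1 was lowest, and male library 4 stood closest to the females. Without male replicate 1 the limma FDR was 0.060 for PARRI_0003072 and 0.057 for PARRI_0003073, and without male replicate 3 it was 0.059 and 0.057, so neither call held there. Without female replicate 1 the difference was 1.51 log2 units in each of them. PARRI_0003074, PARRI_0003075 and PARRI_0003085.t2, named after their values were seen, each lost the threshold without male replicate 1, 2 or 3, with limma FDR between 0.052 and 0.098. PARRI_0003085.t2 also lost it without female replicate 2 (limma FDR 0.10) or 3 (0.083), with no filter (0.052) and under quantile normalization (0.78). PARRI_0003075 also lost it without female replicate 2 (limma FDR 0.063), with library medians centred (0.057) and with replicate number as a block (0.074). PARRI_0003071 and PARRI_0003077, close to the abundant pair and likewise named after their values were seen, were at 0.02 log2 units (SE 0.29, FDR 0.95 by limma) and 0.18 log2 units (SE 0.29, FDR 0.61 by limma) in the male minus female difference and were not called.

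The levels of the male-biased members in females are given as a description, because members called higher in males, and those over 10-fold higher above all, are low in females by that choice. Of the 23 called higher in males, 13 had a female mean below 1 TPM and 3 were listed at 0 in all 3 female libraries. Their female mean was a median of 5.56% of the male mean, against 20.6% over all transcripts called higher in males. Among the 12 over 10-fold higher, the median was 1.45%, against 3.98% over all transcripts over 10-fold higher in males. In the female libraries 8, 6 and 7 of those 12 were listed at 0 in libraries 1 to 3. For the 3 of the 12 that were listed at 0 in all females no fold was measured.

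Male library 3 was the highest male library for most of them. This was so for 14 of the 23 members called higher in males, or 60.9%, against 35.3% of all transcripts called higher in males. For the 12 members over 10-fold higher it was 8, or 66.7%, against 46.8% of all such transcripts. Of the 6 called members from PARRI_0003091 to PARRI_0003097, male library 3 was highest in 5, and PmDmrt3090 and PmDmrt3093 were highest there too. In percent of its own male mean, male library 3 stood at 207% for PARRI_0003091, 233% for PARRI_0003092 and 218% for PARRI_0003094, against 216% for PmDmrt3090. It stood lower for PARRI_0003095 (150%), PARRI_0003096 (134%) and PARRI_0003097 (116%), against 139% for PmDmrt3093. PARRI_0003096, the exception among the 6, was highest in male library 1, at 184%. Members of a neighbourhood share their libraries, so these counts describe 4 libraries and are no test.

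**Figure D4:**
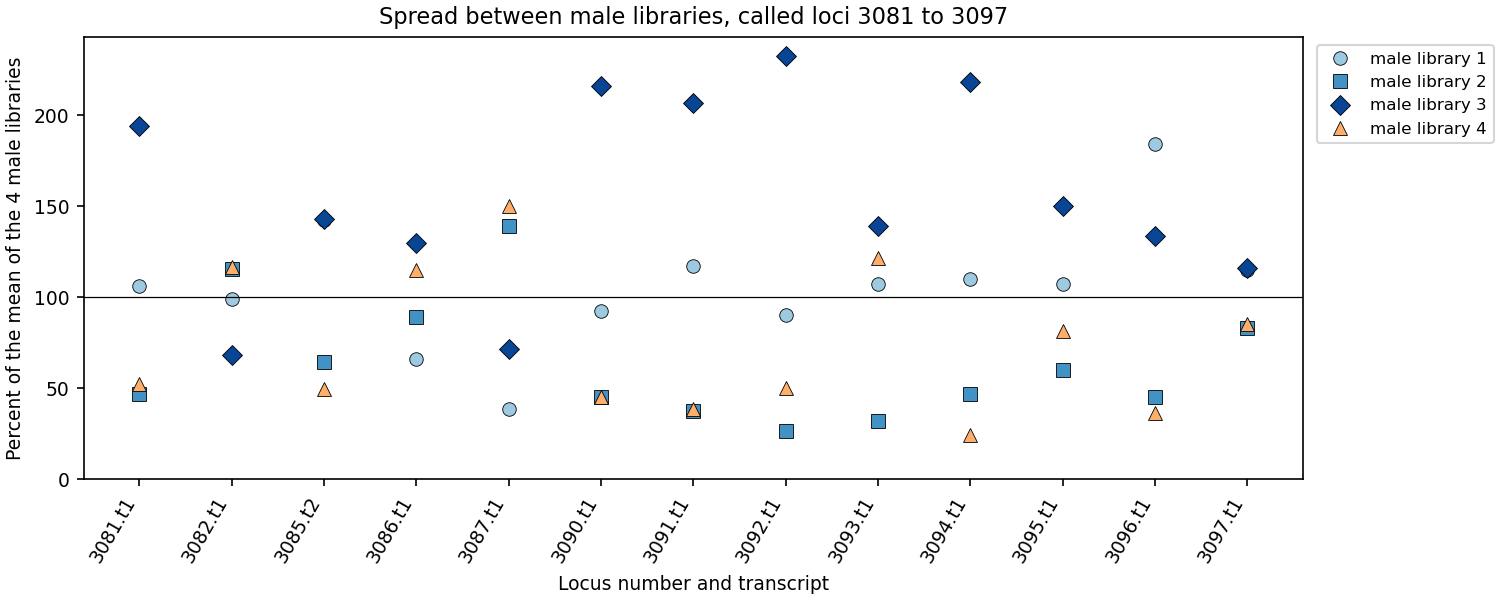
For each transcript from PARRI_0003081 to PARRI_0003097 that was called higher in males, DMRT pair included, the 4 male libraries are shown in percent of their own mean (y axis), with a line at 100%. Male library 3 (dark diamonds) stands above 200% at PARRI_0003090, PARRI_0003091, PARRI_0003092 and PARRI_0003094, and lies below 100% at PARRI_0003082 and PARRI_0003087.

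From PARRI_0003099 on, the members were expressed in both sexes and the calls turned to females. The exception in level was PARRI_0003108, with at most 0.506 TPM in any library and too low to be tested. Of the 24 transcripts there, 11 were called higher in females (45.8%, against 16.8% of all listed transcripts), and they lay between PARRI_0003105 and PARRI_0003119. The steepest were neighbours. PARRI_0003114 had 5.57, 6.19, 5.50 and 7.38 TPM in male libraries 1 to 4, against 101, 169 and 259 TPM in female libraries 1 to 3, a male minus female difference of -4.72 log2 units (SE 0.34, FDR 0.00024 by limma), and was 28.2-fold higher in females by the ratio of group means. PARRI_0003115 had 0.992, 3.47, 7.73 and 4.32 TPM in male libraries 1 to 4, against 78.1, 143 and 186 TPM in female libraries 1 to 3, a male minus female difference of -5.23 log2 units (SE 0.64, FDR 0.00072 by limma), 32.1-fold higher in females. PARRI_0003112 had 2.55, 3.61, 3.12 and 3.15 TPM in male libraries 1 to 4, against 19.2, 27.7 and 43.0 TPM in female libraries 1 to 3, a male minus female difference of -3.16 log2 units (SE 0.36, FDR 0.00057 by limma), 9.36-fold higher in females. All were above 0 in every male library, and they are well counted, with 69.7, 129 and 67.4 mean normalized counts in males and 2250, 4712 and 732 in females.

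The other female-biased members differed less. PARRI_0003119 had 35.7, 28.6, 20.4 and 22.9 TPM in male libraries 1 to 4, against 54.6, 88.5 and 101 TPM in female libraries 1 to 3 (limma FDR 0.0044, 3.02-fold higher in females). PARRI_0003110 had 72.2, 28.3, 17.9 and 45.1 TPM in male libraries 1 to 4, against 90.5, 141 and 136 TPM in female libraries 1 to 3 (limma FDR 0.016), and its call failed without female replicate 2 (limma FDR 0.053) or female replicate 3 (limma FDR 0.057). The others, including PARRI_0003079 among the lower numbers, were between 2.00 and 2.72-fold higher in females. Of these, PARRI_0003116 missed the threshold without female replicate 2, female replicate 3 or male replicate 1 (limma FDR between 0.053 and 0.064) and PARRI_0003117 under quantile normalization (limma FDR 0.067). Over all 12 members called higher in females, the male mean was at least 3.11 TPM and had a median of 16 TPM, while the female mean had a median of 69.7 TPM. None of the 12 had a male mean below 1 TPM, whereas 13 of the 23 members called higher in males had a female mean below 1 TPM. A contrast of that kind was not limited to the members. Over all transcripts called higher in males the female mean had a median of 1.85 TPM. Over all called higher in females the male mean had a median of 11.4 TPM. In 11 of the 12 the female libraries stood in the order 1, 2, 3 from low to high, which held for 86.2% of all transcripts called higher in females.

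PARRI_0003111 was an exception within this segment. It had 8.26, 15.2, 13.2 and 9.81 TPM in male libraries 1 to 4, against 1.54, 6.10 and 2.02 TPM in female libraries 1 to 3, a male minus female difference of 2.03 log2 units (SE 0.51, FDR 0.013 by limma), and was called higher in males with every library left out in turn. It was named after its values were seen, as the only transcript above PARRI_0003099 in this range that was called higher in males.

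**Figure D5:**
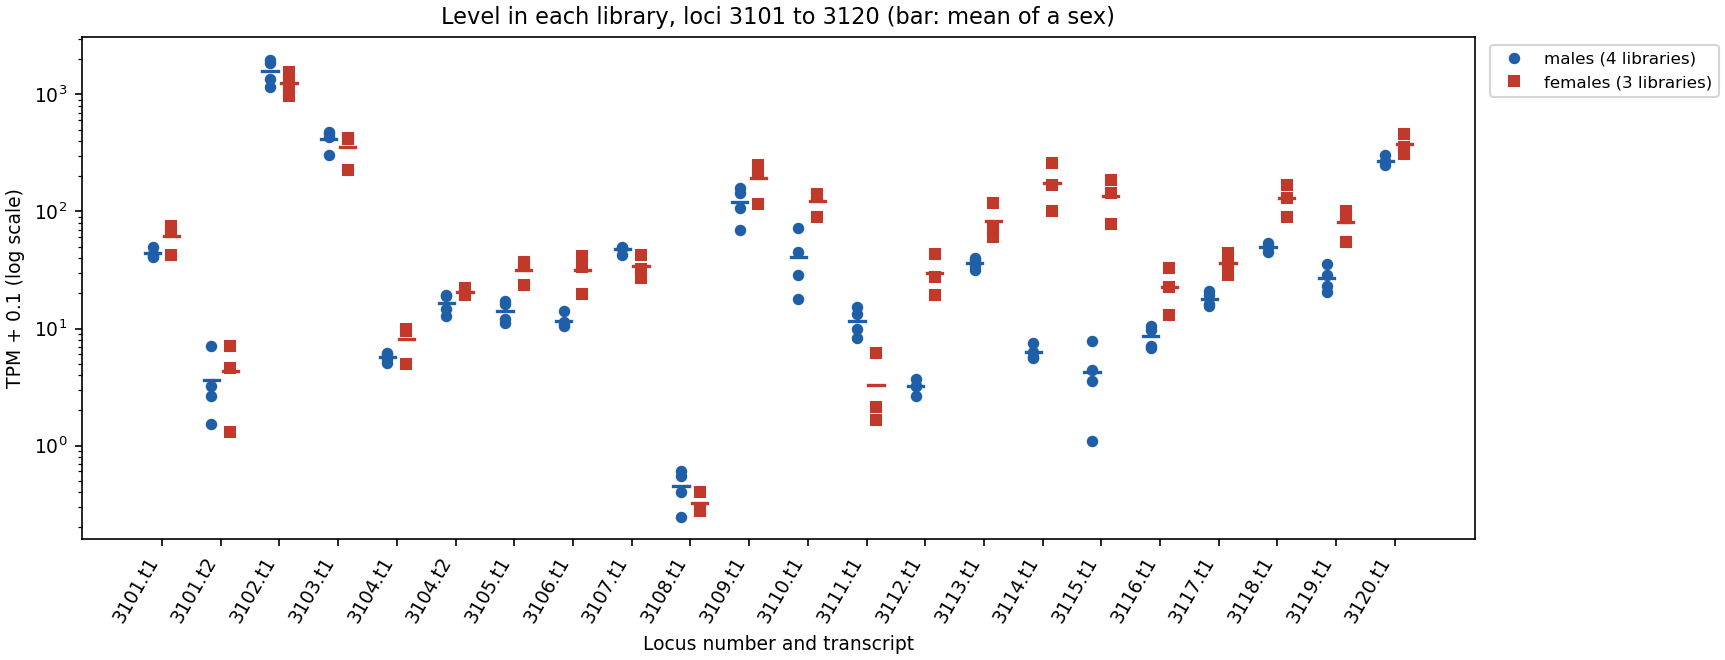
Circles show the 4 male libraries and squares the 3 female libraries of each transcript from PARRI_0003101 to PARRI_0003120, as TPM + 0.1 on a log scale, with a bar at the mean of each sex. Females stand above males without overlap from PARRI_0003112 to PARRI_0003120, and at PARRI_0003104.t2, PARRI_0003105, PARRI_0003106 and PARRI_0003110. Of these, PARRI_0003104.t2 and PARRI_0003120 were not called. Males stand above females without overlap at PARRI_0003111.

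Of the 5 most abundant members, the other 3 were not called. PARRI_0003102 had 1366, 1986, 1169 and 1843 TPM in male libraries 1 to 4, against 1545, 1225 and 969 TPM in female libraries 1 to 3, a male minus female difference of 0.35 log2 units (SE 0.33, FDR 0.39 by limma). PARRI_0003103 had 462, 434, 482 and 301 TPM in male libraries 1 to 4, against 228, 428 and 416 TPM in female libraries 1 to 3, a male minus female difference of 0.27 log2 units (SE 0.32, FDR 0.49 by limma). PARRI_0003120, the last of the range, had 270.1, 247, 307 and 263 TPM in male libraries 1 to 4, against 355, 308 and 461 TPM in female libraries 1 to 3, a male minus female difference of -0.45 log2 units (SE 0.24, FDR 0.15 by limma). Of the 18 members tested and not called, 12 had group means within 1.5-fold of each other, and a missed threshold does not show that their levels are the same. Among members too low or too sparse to test, PARRI_0003076 was unusual, and it was named after its values were seen. It was listed at 0 in all 4 male libraries and had 0, 35.2 and 49.3 TPM in female libraries 1 to 3, but its mean in females was 1.10 normalized counts, and with no filter on low values it was called higher in females (limma FDR 0.047). The other 8 did not exceed 2.03 TPM in any library.

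The surrounding numbers and 2 other male-biased clusters differed from this neighbourhood in their counts. The surrounding numbers were the 66 transcripts from PARRI_0003001 to PARRI_0003060 and the 67 from PARRI_0003121 to PARRI_0003180. In each, 14 were called higher in males (21.2% and 20.9%, against 17.7% of all listed transcripts). Another 22 in each were called higher in females (33.3% and 32.8%, against 16.8% of all listed). Over 10-fold higher in males were 3 and 5 (4.55% and 7.46%, against 5.67% of all listed). The median log2 ratio (males over females) was -0.03 and 0.19 there, against 0.74 in the members. In the 2 other clusters counted here, the counts of male calls were larger. Of 119 transcripts from PARRI_0008551 to PARRI_0008655, 90 were called higher in males, and of 65 from PARRI_0012286 to PARRI_0012345, 60 were, against 23 of the 64 members. Transcripts called higher in females numbered 4 and 0 in those clusters, against 12 among the members. These 2 clusters were known from these same libraries, so the comparison is a description.

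The reads behind a TPM differed among the members. The authors' mean normalized count divided by TPM (each summed over the sexes) grows with the coding length, and had a median of 7.97 counts per TPM in the members called higher in males and 14.4 in those called higher in females. Over the whole matrix the medians were 9.12 and 11.7. Among the 23 male-biased members, 2, PARRI_0003066 and PARRI_0003087, had fewer than 10 mean normalized counts in males.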

How the data were processed

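RNA-Seq libraries were made from poly A-selected RNA of whole P. metropolitanus, 4 of males and 3 of females, with sex and replicate number as labelled. Reads were mapped by the authors to coding sequences and quantified with RSEM 1.3.3, and the deposited signal per transcript is TPM scaled between libraries by TMM. From the authors' deposited DESeq2 1.38.0 table only the mean signal (normalized count) per sex was used, and its fold changes and p-values were not. That table lists 24475 of the 26306 transcripts. Whether reads were counted by strand is not given in the sources used here.

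Males were tested against females by limma 3.58.1 (R 4.3.3). The model, fitted to log2(TPM + 0.1), held sex alone, with a variance trend, and calls were made two-sided at an FDR below 0.05 over all transcripts with at least 1 TPM in at least 3 of 7 libraries. TPM keep no depth, so precision is the spread between libraries. Fitted differences of low transcripts depend on the 0.1 TPM added, and lay above or below the log2 ratio of group means. For PARRI_0003080.t3 the fitted difference was 3.10 log2 units, against 2.21 by group means. For PARRI_0003096, listed at 0 in all females, it was 4.36, against 4.65. Both of its values depend on the 0.1 TPM added and measure no fold. The fit was tested on simulated data. Other steps used Python 3.11.15 and pandas 2.3.3.

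The members, lists and tests were chosen with earlier results of these data known. Named transcripts were those within 4 loci of the DMRT pair, and the 10 (males) and 5 (females) with the largest ratio among calls without overlap and a mean of at least 5 TPM. To these came the ends of the stretch and their next tested loci, the 5 most abundant members and loci with calls in both directions, of which there were none. Others are marked. Alternatives were other pseudocounts, filters and scalings, a replicate block and leaving out each library. The count filter was added after seeing the data.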

Additional observations from a re-analysis of the deposited data

Results flagged for a closer look

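The 4 male libraries of each of 27 named members were checked for 1 value standing apart from its group, which chance gives in about 1 of 20 groups. PARRI_0003080.t1 had 4.13 TPM in male library 2, against 0, 0.033 and 0 TPM in male libraries 1, 3 and 4. PARRI_0003080.t3 had 6.87 TPM in male library 2, against 5.21, 5.21 and 5.23 TPM in the other male libraries. Both are transcripts of the same locus, and its other transcript, PARRI_0003080.t2, was also highest in male library 2, at 8.42 TPM. Whether reads were divided between these transcripts was not tested.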

How the results depend on the processing

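Members called higher in females numbered between 10 and 15 in every alternative, against 12. Members called higher in males numbered 23, and 13 with a 5 TPM filter on the mean, which tests fewer members (38), and between 14 and 24 with each library left out in turn, lowest without male replicate 1 (14) and male replicate 3 (15). Members over 10-fold higher in males numbered 12, and 4 with a pseudocount of 1 TPM, 4 with a 5 TPM filter on the mean, and 5 under quantile normalization. The median log2 ratio over members was 0.74, and 0.45 with a pseudocount of 1 TPM, 0.13 with a 5 TPM filter on the mean, 0.58 under quantile normalization, and 0.46 with the count filter. Over all transcripts with a value it was 0.48, and 0.21, 0.01, -0.02 and 0.43 in these settings. The median fitted difference over all tested transcripts was 0.50, and 0.01 under quantile normalization, where 20 members were called higher in males and 12 higher in females. The stretch held 17 loci, and 8 with a pseudocount of 1 TPM, 8 with a 5 TPM filter on the mean, 8 with the count filter, 11 under quantile normalization and 41 with over 2-fold in place of over 10-fold, and 17 or 18 with each library left out. The higher pseudocount and the filters act on low values by construction, and the cause of the other changes was not tested. With replicate number as a block, 21 members were called higher in males and 12 higher in females, and the stretch held 17 loci. Same-numbered libraries of the sexes deviated together with correlations of -0.013, 0.028 and 0.25 across transcripts, and not every library correlated best with its own number, so the numbers were not taken to pair the libraries. PARRI_0003103, not called, was at 0.27 (male minus female, log2) with all libraries and between -0.031 and 0.42 with each library left out, lowest without female replicate 1. Of 342 refits of 26 named members, 323 kept direction and side of the threshold. Settings in which a member was too low to be tested are not among these refits. Depth per library is unknown from TPM.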
